A study of Bos taurus with 8 samples.

Results

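The mitochondrial ribosome carries its own set of proteins, encoded in the nucleus under the symbols MRPL (large subunit) and MRPS (small subunit) together with DAP3 and PTCD3. All symbols of the deposited table that begin with MRPL or MRPS followed by a number, plus DAP3 and PTCD3, were taken, which gave 77 of the 16606 genes in the table: 47 MRPL genes, 28 MRPS genes and the latter pair. All 77 passed the filter on low values, a mean of at least 1 CPM (counts per 1000000 reads), as did 12129 genes of the table in all. The smallest number of reads for any member in any library was 32. Reads are not independent molecules here, so this number does not give the distance from the detection limit.

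Transcript levels came from 8 RNA-seq libraries of bovine (Bos taurus) preimplantation embryos in 4 groups of 2 libraries: control embryos at the 4-cell stage, edited embryos at the 4-cell stage, control embryos at the 8-cell stage and edited embryos at the 8-cell stage. Edited embryos had been injected at the zygote stage, into the cytoplasm, with a guide RNA and PEmax, an optimised prime editor that joins a nicking Cas9 to a reverse transcriptase, to place the change A148G in RPL12, a protein of the cytosolic large ribosomal subunit. All embryos of all groups were produced in vitro from oocytes of slaughterhouse ovaries and frozen Holstein semen, and 5 embryos were lysed per pool. Injection of the controls, the share of alleles changed and whether A148G counts bases or residues are not given in the labels, the titles call the samples base edited where the protocol speaks of prime editing, and the 4-cell samples carry oocyte as their source although the titles, which were followed, name 4-cell embryos. That the libraries come from separate pools rests on the labels alone, so the p-values measure the spread between these libraries, which may be technical.

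Mitochondrial ribosomes translate the few messages of mitochondrial DNA, all of them parts of the respiratory chain and ATP synthase. The large subunit holds the peptidyl transferase centre, a stalk that receives translation factors, a central protuberance and the peptide exit, and it sits against the inner membrane. The small subunit has a head, a body with the decoding site, and a path for the message. The early bovine embryo lives largely on messages and mitochondria laid down in the oocyte, and its main genome activation falls around the 8-cell stage.

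The libraries held 33527531 to 35122409 reads, and 3 reads corresponded to 0.0858 to 0.0899 CPM. The cDNA was amplified and no molecular identifiers were used, so reads are not independent molecules. Of 12 oocyte markers listed, 11 were in the table and none of these was at 0 in any library, with summed levels of 4811 and 6370 CPM in control and 7794 and 7181 CPM in edited 4-cell embryos, then of 8839 and 7426 CPM in control and 10872 and 12588 CPM in edited 8-cell embryos. RPL12 itself stood at 159 and 174 CPM in control against 27.5 and 33.6 CPM in edited 4-cell embryos. At the 8-cell stage it stood at 96.3 and 97.6 CPM against 14.1 and 11.9 CPM. All 4 edited libraries were thus below all 4 control libraries for RPL12. Because each library is a pool of whole embryos, fewer cells of a kind and less RNA per cell cannot be told apart in any value below.

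At the 4-cell stage, transcripts of mitochondrial ribosomal proteins were mostly lower in edited embryos. The 77 transcripts together took 1.06% and 0.919% of the reads in the control libraries and 0.669% and 0.660% in the edited ones, so the groups did not overlap. With limma on log2(CPM + 1), fitted over all tested genes with Benjamini-Hochberg adjustment, 49 members fell and 5 rose at an adjusted p under 0.05. Over all genes tested, 44.7% were called in this comparison, 25.8% lower and 18.9% higher. The member share was thus above the background for lower calls and below it for higher ones. In 43 of the 54 called members the change was at least 2-fold. The median log2 fold change (edited minus control) was -1.14 over the members and -0.02 over all genes tested, and the members spanned -3.33 to 0.99. Both edited libraries lay below both control libraries in 56 members, where 37.5% of all tested genes did so, and above them in 8, where 33.5% did.

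**Figure D1:**
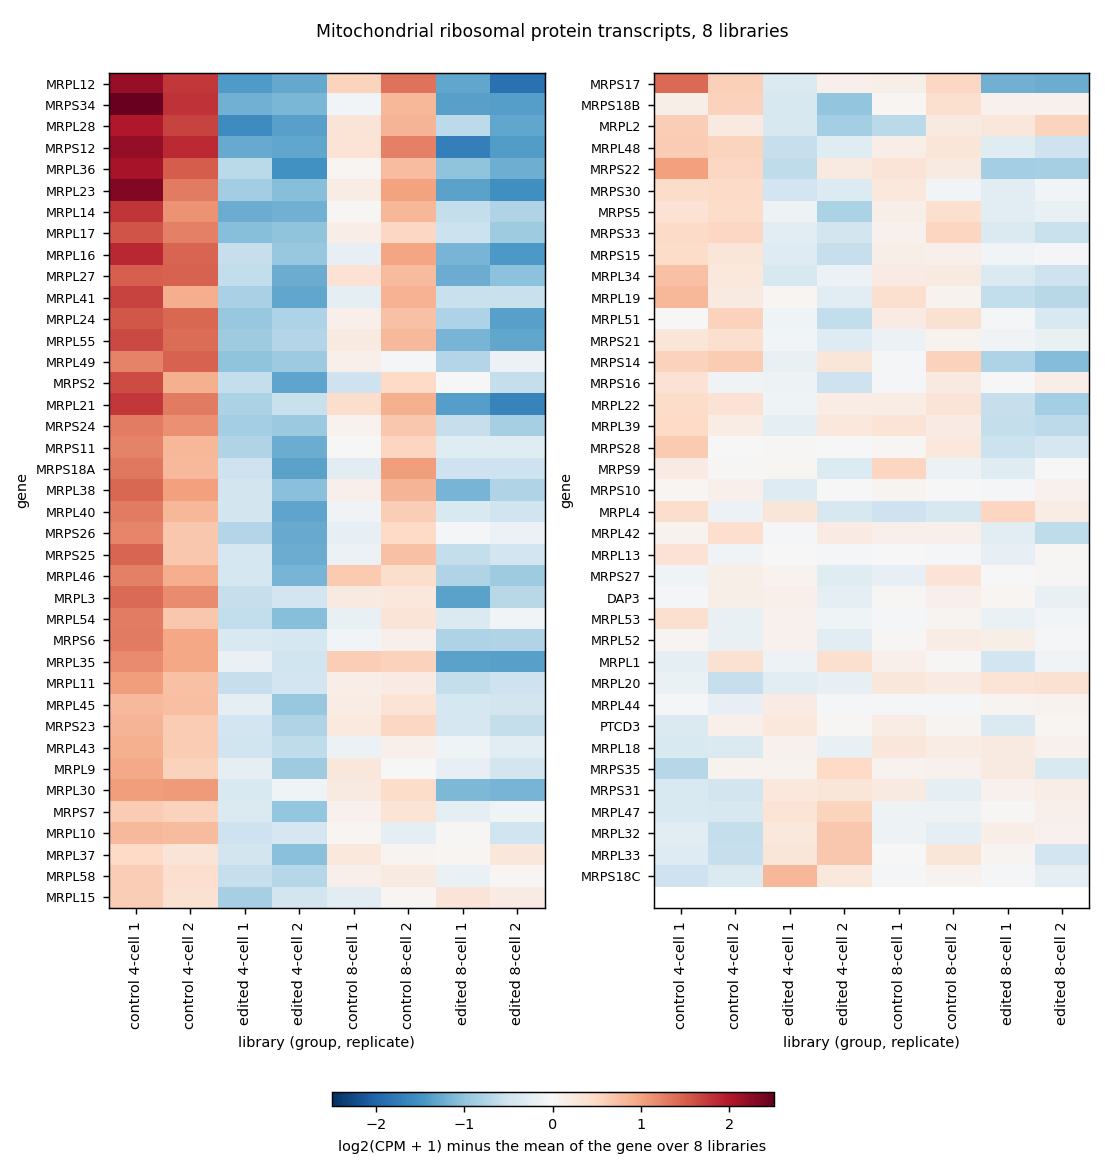
Level of each of the 77 transcripts in each of the 8 libraries, drawn as log2(CPM + 1) minus the mean of that gene over the libraries (colour bar), with genes ordered from the lowest to the highest 4-cell log2 fold change. The upper rows, from MRPL12 to about MRPL15, are red in the control 4-cell libraries and blue in the edited 4-cell libraries, and the last rows, from MRPS31 to MRPS18C, show the opposite order at the 4-cell stage.

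The 3 proteins of the stalk and its base all fell at the 4-cell stage (median log2 fold change -1.41), where 25.8% of all genes were called lower. MRPL12, the multi-copy stalk protein that contacts translation factors, stood at 111 and 83.5 CPM in control and at 8.27 and 9.18 CPM in edited 4-cell embryos. Its edited libraries lay close together and far below both controls. The log2 fold change was -3.33 (SE 0.332, limma adjusted p = 1.99e-06), which was the largest fall of any member. MRPL11, which sits at the stalk base and belongs to the same universal protein family (uL11) as the edited gene RPL12, stood at 145 and 116 CPM against 46.5 and 49.9 CPM. The groups did not overlap here either, and the difference was -1.41 (SE 0.233, limma adjusted p = 1.69e-04). MRPL10, the anchor of the stalk, changed by -1.27 (SE 0.305, limma adjusted p = 0.00314).

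Of the 7 proteins listed for the core around the peptidyl transferase centre, 5 fell (median -1.83), where 25.8% of all genes were called lower. MRPL14, which lies at the interface between subunits, stood at 350.5 and 223 CPM in control and at 42.2 and 43.4 CPM in edited embryos. The control libraries differed from each other by more than the edited ones did, yet both were far above them, and the log2 fold change was -2.68 (SE 0.283, limma adjusted p = 3.32e-06). MRPL2, a core protein beside the catalytic centre, stood at 124 and 94.3 CPM against 60.9 and 44.5 CPM. Its change of -1.04 had a limma adjusted p of 0.00897, and the call was lost without control 4-cell replicate 1 (-0.84, adjusted p = 0.0644) and without edited 4-cell replicate 2 (-0.82, adjusted p = 0.0986). MRPL27, whose bacterial counterpart reaches toward the catalytic centre, was 1 of the 3 members with the lowest mean CPM, at 25.2 and 24.9 CPM against 5.09 and 2.95 CPM, and fell by 2.41 on the log2 scale (limma adjusted p = 7.62e-05). MRPL16 and MRPL3 were the other two core proteins that fell, by 2.42 and 1.83. MRPL4, which lines the exit tunnel in bacterial ribosomes, did not pass (log2 fold change -0.19, limma adjusted p = 0.682), with 20.8 and 13.5 CPM in control and 18.9 and 11.1 CPM in edited libraries that interleave. MRPL13 was the remaining core protein that did not pass.

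Around the peptide exit, 4 of 8 listed proteins fell and MRPL47 rose (median -0.87). Among all genes 25.8% were called lower and 18.9% higher at this stage. MRPL45, which holds the ribosome to the inner membrane, stood at 131 and 125 CPM in control and at 62.6 and 37.8 CPM in edited embryos, a difference of -1.38 (limma adjusted p = 4.74e-04). MRPL17 had the lowest mean CPM of all members, with 11.0 and 8.59 CPM in control and 0.926 and 0.994 CPM in edited libraries. These low values make the fitted log2 fold change of -2.45 (limma adjusted p = 9.67e-05) an understatement on this scale. MRPL23 and MRPL24 fell by 2.77 and 2.35. MRPL22, MRPL39 and MRPL44 did not pass, with log2 fold changes of -0.36, -0.33 and 0.21.

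Of the 8 proteins of the central protuberance, 6 fell (median -1.10), where 25.8% of all genes were called lower. MRPL58, also known as ICT1, is a peptidyl-tRNA hydrolase that is built into the large subunit, and it stood at 199.5 and 175 CPM in control against 86.9 and 79.5 CPM in edited embryos (log2 fold change -1.16, limma adjusted p = 4.86e-04). MRPS30 is a large-subunit protein in spite of its symbol and stood at 43.1 and 43.6 CPM against 22.0 and 24.3 CPM. It fell by 0.88 (limma adjusted p = 0.0140), a call lost without edited 4-cell replicate 1 (-0.81, adjusted p = 0.0613). MRPL40, the second lowest member by mean CPM, stood at 23.2 and 16.7 CPM against 6.16 and 2.95 CPM and fell by 1.96 (limma adjusted p = 8.49e-04). In each of these 3 genes both edited libraries were below both controls. MRPS18A, likewise a large-subunit protein by position although named as a small-subunit one, stood at 68.1 and 47.9 CPM against 18.4 and 10.00 CPM, a difference of -1.99 (limma adjusted p = 7.52e-04).

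Among large-subunit proteins outside these role lists, MRPL28 had a fall close to that of MRPL12. It stood at 102 and 81.4 CPM in control and at 7.66 and 8.98 CPM in edited embryos (log2 fold change -3.31, SE 0.315, limma adjusted p = 1.48e-06). No edited library came near a control library for this gene. Counting MRPS18A and MRPS30 with it, the large subunit had 33 members lower and 3 higher of 49 (median -1.30). The small subunit had 16 lower and 2 higher of 28 (median -0.87). Among all genes 25.8% were called lower and 18.9% higher at this stage. Whether the subunits differ was not tested.

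In the small subunit, 3 of 4 proteins along the path of the message fell (median -1.49), and 7 of 10 proteins of the body and platform did (median -1.05). The share of all genes called lower at this stage was 25.8%. MRPS12, the decoding-site protein of family uS12, stood at 116 and 91.8 CPM in control and at 9.69 and 9.42 CPM in edited embryos. The edited libraries were nearly equal and the log2 fold change was -3.30 (SE 0.326, limma adjusted p = 1.83e-06). MRPS34, a protein found in mitochondrial but not in bacterial ribosomes, stood at 80.3 and 50.5 CPM against 5.41 and 5.64 CPM, a change of -3.31 (SE 0.364, limma adjusted p = 4.80e-06). MRPS6, a platform protein, stood at 479 and 376 CPM against 148 and 143 CPM (log2 fold change -1.54, limma adjusted p = 3.91e-05). For all 3 genes the groups were well apart. PTCD3, a pentatricopeptide repeat protein near the entry of the message, stood at 48.4 and 68.2 CPM in control and at 74.6 and 63.6 CPM in edited embryos, which overlap (log2 fold change 0.26, limma adjusted p = 0.445).

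The head of the small subunit had the fewest falls of the role lists by share: 2 of 8 fell, 1 rose and 5 did not pass (median -0.26). Over all genes tested 25.8% were called lower and 18.9% higher at this stage, so the falls in the head were near the background. DAP3, a GTP-binding protein of the head, stood at 47.5 and 54.2 CPM in control and at 53.2 and 41.4 CPM in edited 4-cell embryos. At the 8-cell stage it stood at 50.1 and 53.4 CPM against 50.7 and 42.9 CPM. The 8 libraries overlapped throughout, with log2 fold changes of -0.11 and -0.15 (limma adjusted p = 0.751 and 0.755). MRPS10, another head protein and the third member by mean CPM, ranged from 293 to 397 CPM over the 8 libraries and was not called at either stage. MRPL20, the member with the highest mean CPM, also passed in no comparison of edited with control: it had 841 and 635 CPM in control against 784 and 813 CPM in edited 4-cell embryos, and 1143 and 1080 CPM against 1198 and 1232 CPM at the 8-cell stage. CPM is not corrected for transcript length, so the rank of a gene by CPM is a rank by reads and not by number of transcripts.

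The 5 members that rose at the 4-cell stage were MRPL32, MRPL33, MRPL47, MRPS18C and MRPS31. MRPL32, which is matured by a protease of the inner membrane, stood at 300.1 and 239 CPM in control and at 433 and 576 CPM in edited embryos (log2 fold change 0.90, limma adjusted p = 0.00328). MRPL47, a protein at the peptide exit, stood at 166 and 166 CPM against 278 and 320.0 CPM (0.84, limma adjusted p = 0.00327). The controls of MRPL47 were nearly equal, and both edited libraries exceeded them. MRPS18C, the small-subunit paralogue of MRPS18A, had 30.2 and 33.9 CPM against 78.6 and 52.7 CPM. Its change of 0.99 (limma adjusted p = 0.00687) was the largest rise of a member and lost its call without edited 4-cell replicate 1 (0.70, adjusted p = 0.0806). MRPL33 had 47.8 and 40.1 CPM against 74.9 and 97.3 CPM (0.95, limma adjusted p = 0.00870), a call lost without edited 4-cell replicate 2 (0.76, adjusted p = 0.0800). MRPS31, of the small-subunit head, had 261 and 247 CPM against 407 and 423 CPM (0.71, limma adjusted p = 0.0126) and likewise lost its call without edited 4-cell replicate 2 (0.68, adjusted p = 0.0573).

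**Figure D2:**
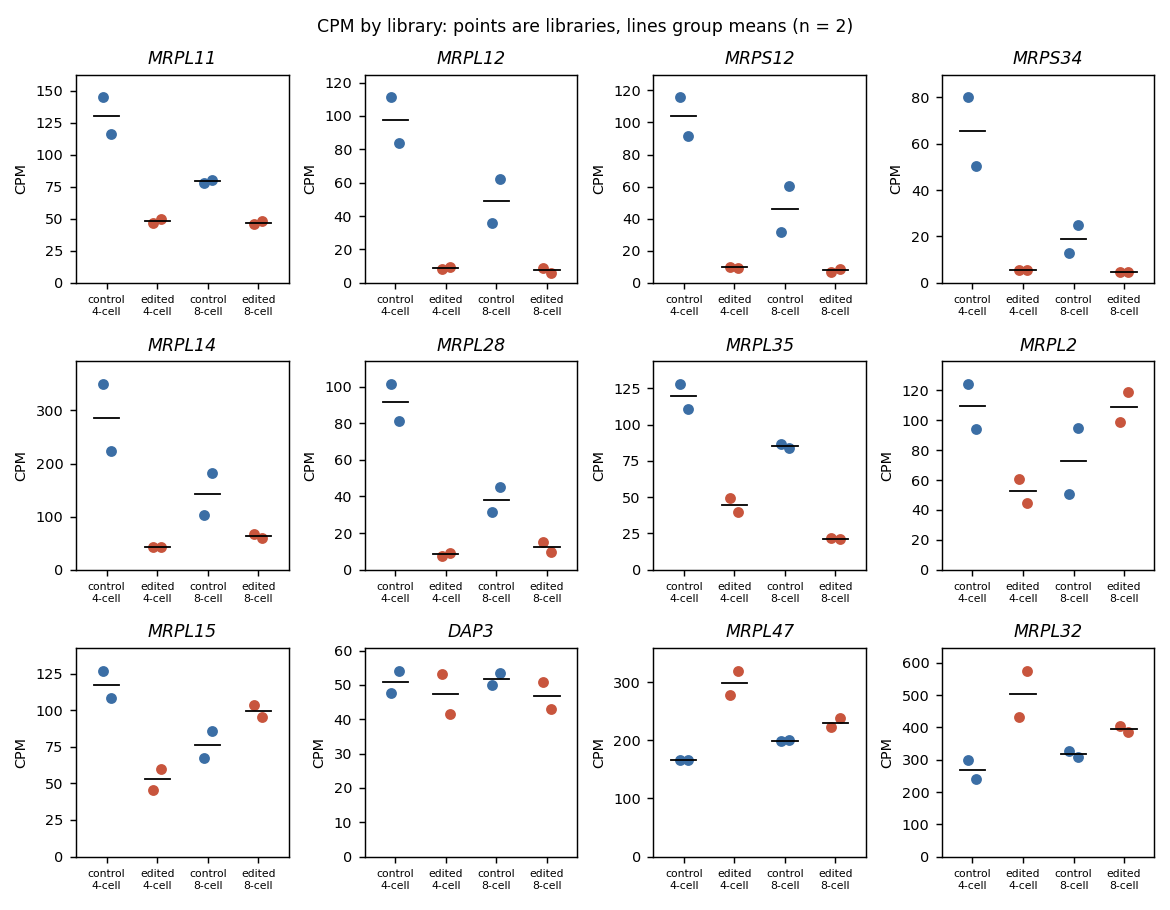
CPM of 12 members in each library (points, control in blue and edited in red) with group means of 2 libraries (lines), each panel starting at 0. MRPL11, MRPL12, MRPS12, MRPS34, MRPL14, MRPL28 and MRPL35 lie lower in the edited than in the control libraries at both stages, MRPL2 and MRPL15 lie lower at the 4-cell stage and higher at the 8-cell stage, DAP3 overlaps, and MRPL47 and MRPL32 lie higher.

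At the 8-cell stage, 28 members fell in edited embryos and none rose. Over all genes 15.6% were called, 14.5% lower and 1.08% higher. At an unadjusted p under 0.05, limma gave 39 members, and edgeR and DESeq2 called 22 and 28 after adjustment, all of them lower. Over all genes each fit tested, limma, edgeR and DESeq2 called 1895, 1695 and 2229. The 77 transcripts took 0.812% and 0.882% of the reads in control and 0.696% and 0.692% in edited libraries. The median log2 fold change was -0.56 over the members and 0.00 over all genes tested, and the members ranged from -2.54 to 0.83. Both edited libraries were below both controls in 49 members (32.7% of all tested genes) and above them in 7 (27.7%). The member median was -0.41 without control 8-cell replicate 2 and -0.55 without edited 8-cell replicate 2. With upper quartile scaling, which moved the median of all genes to 0.17, 22 members were called, all lower, and the member median was -0.38. That fit called 1985 of all genes.

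MRPL12 was again among the members with the largest falls, at 35.6 and 62.3 CPM in control and 9.11 and 5.78 CPM in edited 8-cell embryos (log2 fold change -2.54, limma adjusted p = 5.80e-05). MRPS12 stood at 31.5 and 60.2 CPM against 6.84 and 8.75 CPM (-2.35, limma adjusted p = 9.16e-05). In both genes the control replicates were well apart, replicate 2 being higher, and both still exceeded the edited libraries. MRPL35, a large-subunit protein with a bacterial counterpart, had the smallest p-value of the members at this stage. It stood at 86.9 and 84.1 CPM in control and at 21.6 and 21.3 CPM in edited embryos (-1.94, SE 0.242, limma adjusted p = 3.74e-05). Replicates of MRPL35 nearly coincided within each group. MRPL21 stood at 49.4 and 68.1 CPM against 13.3 and 10.8 CPM (-2.19, limma adjusted p = 5.29e-05). MRPL55, found in mitochondrial but not in bacterial ribosomes, stood at 56.5 and 84.8 CPM against 20.9 and 19.0 CPM (-1.75, limma adjusted p = 1.94e-04). Neither gene's groups overlapped.

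By role, 2 of 3 stalk proteins, 4 of 7 core proteins, 4 of 8 exit proteins and 2 of 8 proteins of the central protuberance fell at the 8-cell stage. In the small subunit 2 of 4 along the message path, 4 of 10 of the body and 2 of 8 of the head fell. Over all genes 14.5% were called lower at this stage. MRPL11, the family partner of RPL12, stood at 78.3 and 80.2 CPM in control and at 45.9 and 48.3 CPM in edited embryos. The groups were apart, yet the change of -0.74 (limma adjusted p = 0.0401) lost its call when any of the 4 libraries was left out (adjusted p from 0.132 to 0.224), with edgeR (adjusted p = 0.0937), with DESeq2 (adjusted p = 0.0543), with upper quartile scaling (-0.55, adjusted p = 0.117) and with a block for the replicate number (adjusted p = 0.0662). MRPL14 stood at 104 and 182 CPM against 66.9 and 60.02 CPM (-1.10, limma adjusted p = 0.0121). Without control 8-cell replicate 2 its value was -0.70 (adjusted p = 0.234), and without edited 8-cell replicate 2 it was -1.03 (adjusted p = 0.0938). MRPS34 and MRPL36 also lost their calls without control 8-cell replicate 2, with -1.30 (adjusted p = 0.0747) and -1.16 (adjusted p = 0.0998), and so did MRPL28 with -1.30 (adjusted p = 0.0501). MRPS6 (184 and 211 CPM against 113 and 115 CPM, log2 fold change -0.79, limma adjusted p = 0.0177) lost its call without control 8-cell replicate 2 (adjusted p = 0.164) and without either edited library (adjusted p = 0.128 and 0.111).

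Members without a call at this stage included MRPL4, with the highest log2 fold change of the members. It stood at 10.3 and 11.2 CPM in control and at 22.4 and 17.4 CPM in edited embryos, 0.83 (SE 0.348, limma adjusted p = 0.136). The libraries did not overlap, but the difference did not pass over all genes. MRPL10, MRPL45, MRPL58, MRPS18A and MRPS30, which fell at the 4-cell stage, had 8-cell log2 fold changes of -0.14, -0.71, -0.24, -0.90 and -0.26 without a call. PTCD3 had 71.3 and 65.6 CPM against 48.3 and 64.2 CPM (-0.29). None of the 5 members that rose at the 4-cell stage was called at the 8-cell stage, with values from -0.36 to 0.31.

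Setting both stages side by side, 24 members were called lower at both, 25 at the 4-cell stage alone and 4 at the 8-cell stage alone (MRPL19, MRPL22, MRPL39 and MRPS14). Another 5 were called higher at the 4-cell stage alone, and 19 were called in neither direction at either stage. In 40 of 77 members all 4 edited libraries lay below all 4 control libraries, where 19.6% of all tested genes did. Only MRPL32 and MRPL47 had all edited above all control libraries, where 9.98% of tested genes did. MRPL19 had 106 and 69.3 CPM in control and 61.4 and 49.1 CPM in edited 4-cell embryos, which is below the controls without passing (limma adjusted p = 0.0629). Calls at one stage and not at the other do not show that the stages differ. Over the 77 members the log2 fold changes at both stages, which share no libraries, were correlated with r = 0.71 (Pearson) and rho = 0.71 (Spearman), and over all tested genes these were 0.72 and 0.63. Genes are not independent replicates, and these coefficients only describe the libraries.

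**Figure D3:**
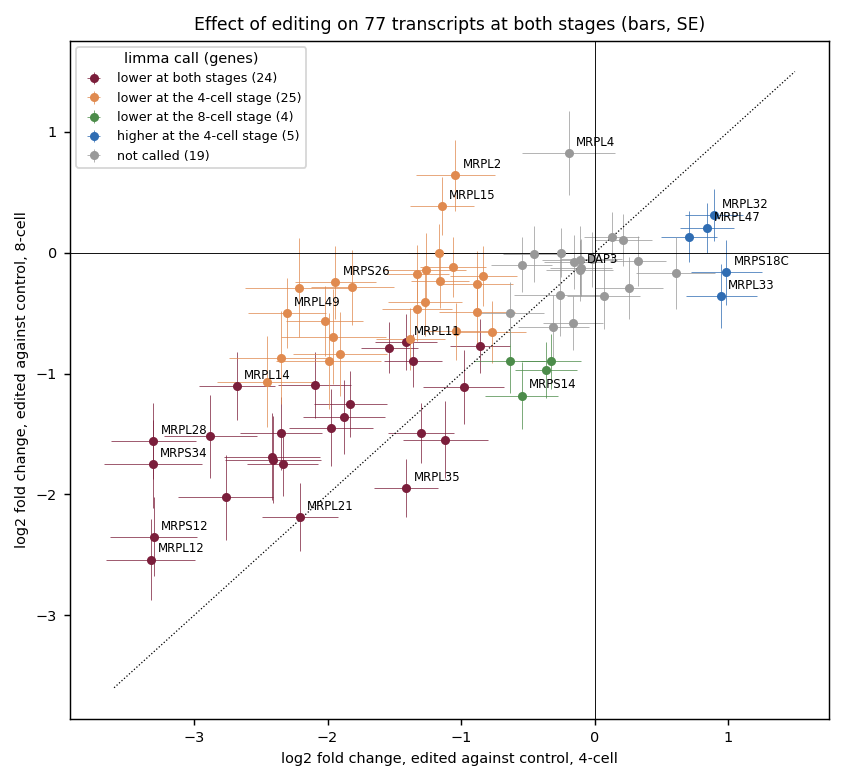
Log2 fold change of edited against control embryos at the 4-cell stage (horizontal axis) and at the 8-cell stage (vertical axis) for the 77 members, with standard errors as bars, equal values as a dotted line and colours for limma calls. Most points lie in the lower left part, 24 of them called at both stages, and many lie above the dotted line, nearer to 0 at the 8-cell stage.

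Of these members, 6 had an edit effect that differed between stages by limma's test of the difference, all of them less negative or more positive at the 8-cell stage. Of all genes tested 3.96% were called in that test, 1.95% in this direction and 2% in the other. MRPL49, a protein found in mitochondrial but not in bacterial ribosomes, stood at 64.2 and 75.7 CPM against 12.9 and 13.7 CPM at the 4-cell stage and at 29.3 and 26.3 CPM against 15.6 and 24.1 CPM at the 8-cell stage. The gap was wide at the earlier stage and small at the later one, with effects of -2.31 and -0.50 and a difference of 1.81 (SE 0.411, limma adjusted p = 0.0324). MRPL15, a large-subunit core protein by its bacterial counterpart, stood at 127 and 108 CPM against 45.8 and 60.2 CPM, then at 67.4 and 85.8 CPM against 104 and 95.7 CPM. Its order was turned, with effects of -1.14 and 0.39, the latter not called, and a difference of 1.53 (limma adjusted p = 0.0320). MRPL2 showed the same order of groups, with 50.6 and 94.8 CPM against 99.2 and 119 CPM at the 8-cell stage (difference 1.68, limma adjusted p = 0.0390). MRPS26, of the small-subunit body, had 105 and 72.0 CPM against 26.4 and 18.2 CPM, then 39.0 and 63.8 CPM against 44.0 and 40.2 CPM (difference 1.70, limma adjusted p = 0.0393). MRPL14 and MRPL28 differed by 1.58 and 1.75 (limma adjusted p = 0.0406 and 0.0412). Over all genes, edgeR called 18 in the test of the difference, where limma called 480. With edgeR none of the 6 was called (adjusted p from 0.0727 to 0.0959, 25 members at an unadjusted p under 0.05). The median difference over the members was 0.53 in the main fit. With 1 library left out it ranged from 0.33 (without control 8-cell replicate 1) to 0.69 (without control 4-cell replicate 2).

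In control embryos the members were mostly lower at the later stage. The mean of the control 4-cell libraries was the highest of the 4 group means in 61 of 77 members, where 38% of all tested genes showed this. In 56 members the order of means was control 4-cell, then control 8-cell, then both edited groups, where 29.8% of tested genes had that order. In controls 12 members fell between the stages and none rose, where 9.02% of all genes were called, 6.27% lower and 2.75% higher, and the member median was -0.48. The control 8-cell libraries lay below the control 4-cell libraries in 47 members (30.8% of all genes) and above them in 9 (28.4%). These controls also enter the edited comparisons at their stage, so the sets are not independent.

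The member with the smallest p-value for the fall between stages in controls was MRPS6, from 479 and 376 CPM to 184 and 211 CPM (log2 fold change -1.10, limma adjusted p = 0.0126). MRPS34 went from 80.3 and 50.5 CPM to 13.0 and 25.1 CPM (-1.76, limma adjusted p = 0.0152). MRPL49 fell by 1.30 (limma adjusted p = 0.0193), MRPL36 by 1.38 (limma adjusted p = 0.0284) and MRPL28 by 1.25 (limma adjusted p = 0.0286). MRPL36 is a small large-subunit protein with a bacterial counterpart, and it stood at 115 and 79.4 CPM, then at 27.9 and 46.9 CPM. In each of these 5 genes the stages did not overlap. Over all genes each fit tested, the number of calls in this comparison depended on the fit. It was 1094 in the main fit, 86 with edgeR and 0 without the low-value filter. With only the 4 control libraries it was 161, and with DESeq2 1629. The member calls were fragile too: none was made with edgeR (32 at an unadjusted p under 0.05), without the low-value filter (32) or with only the 4 control libraries in the fit (32). DESeq2 called 24 members. The member median was -0.36 without control 4-cell replicate 1 and -0.58 without control 4-cell replicate 2. Without control 8-cell replicates 1 and 2 it was -0.34 and -0.49.

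In edited embryos few members changed between the stages. Of the members, 2 rose and 3 fell, where 5.18% of all genes were called, 1.45% higher and 3.73% lower, and the member median was -0.01. The 8-cell libraries were below the 4-cell libraries in 23 members (30.2% of all genes) and above them in 21 (22.7%). MRPL37 rose from 163 and 107 CPM to 232 and 272 CPM (log2 fold change 0.93, limma adjusted p = 0.0347), and MRPL15 rose from 45.8 and 60.2 CPM to 104 and 95.7 CPM (0.91, limma adjusted p = 0.0416). MRPL35 fell from 49.5 and 39.4 CPM to 21.6 and 21.3 CPM (-1.01, limma adjusted p = 0.0277). In these 3 genes the stages did not overlap. MRPL30, of family uL30, fell by 0.90 (limma adjusted p = 0.0459) and MRPS14, of the small-subunit head, by 0.99 (limma adjusted p = 0.0485). MRPS14 was also called lower in edited than in control 8-cell embryos, at 36.2 and 28.7 CPM against 59.7 and 92.6 CPM (-1.18, limma adjusted p = 0.00618), and that call was lost without control 8-cell replicate 2 (-0.87, adjusted p = 0.132) and without edited 8-cell replicate 2 (-1.02, adjusted p = 0.0837). Over all genes, edgeR called 324 in this comparison and the fit with the replicate block 554, where the main fit called 628. With edgeR 1 of the 77 members was called between stages in edited embryos, and with the replicate block 2. With 1 library left out, the member median ranged from -0.11 (without edited 4-cell replicate 2) to 0.17 (without edited 4-cell replicate 1).

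The members were also split by ancestry. Of 44 members with a bacterial homologue, 28 fell and 4 rose at the 4-cell stage (median -1.21), and 20 fell at the 8-cell stage (median -0.61). Of the other 33, found in mitochondrial ribosomes only or left in that class, 21 fell and 1 rose (median -1.06), and 8 fell at the 8-cell stage (median -0.50). As background for these counts and for the pairs below, 25.8% of all genes were called lower and 18.9% higher at the 4-cell stage. For the 8-cell stage the shares were 14.5% and 1.08%. For 27 members a cytosolic ribosomal protein of the same universal family is known, and each was set beside it. At the 4-cell stage 18 of the mitochondrial and 25 of the cytosolic proteins fell, both of a pair in 17, with medians of -1.14 and -1.56. At the 8-cell stage 12 and 21 fell, both in 11, with medians of -0.49 and -1.52. The cytosolic change was the more negative of the pair in 17 pairs at the 4-cell and in 21 pairs at the 8-cell stage. Across pairs the changes were hardly related, with Pearson r of 0.15 and 0.21 and Spearman rho of 0.12 and 0.21, as a description over genes of the same libraries.

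Within family uL11, MRPL11 changed by -1.41 and -0.74 at the 4-cell and 8-cell stages and RPL12 by -2.41 and -2.81. In uL29 the pair went opposite ways at the 4-cell stage: MRPL47 rose by 0.84, while RPL35 went from 236 and 168 CPM to 39.6 and 38.9 CPM (-2.31, limma adjusted p = 9.06e-06). In uS12 the mitochondrial protein had the larger change, -3.30 for MRPS12 against -1.47 for RPS23 (limma adjusted p = 2.59e-04). In uL2 at the 8-cell stage MRPL2 had 0.64 without a call, and RPL8 went from 324 and 548 CPM in control to 73.9 and 50.6 CPM in edited embryos (-2.76, limma adjusted p = 5.70e-06). These last 3 families were picked for their gaps after the values were seen.

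**Figure D4:**
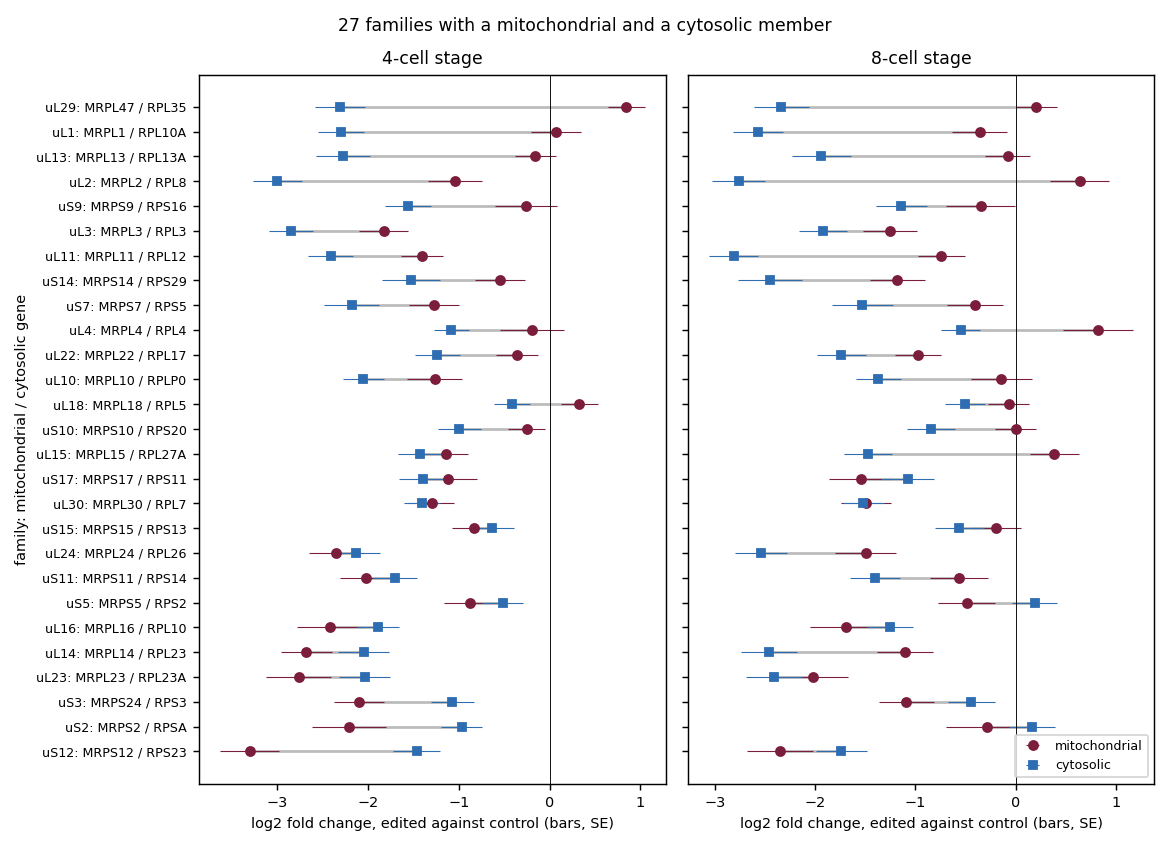
Log2 fold change of edited against control embryos for the mitochondrial (dark red circles) and cytosolic (blue squares) member of each of 27 universal families at the 4-cell (left) and 8-cell (right) stage, with standard errors as bars, ordered by the 4-cell gap. In 17 families on the left and 21 on the right the cytosolic square lies to the left of the mitochondrial circle.

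Genes that work with the mitochondrial ribosome were described from lists of their functions. Of 3 further ribosomal proteins whose symbols the rule did not take, AURKAIP1 and GADD45GIP1 fell at the 4-cell stage and AURKAIP1 at the 8-cell stage. AURKAIP1 stood at 135 and 82.0 CPM against 13.5 and 13.2 CPM, then at 32.8 and 49.3 CPM against 14.6 and 12.2 CPM (log2 fold changes -2.89 and -1.53, limma adjusted p = 3.85e-06 and 0.00230). Edited libraries were the lowest at both stages, and the 8-cell call was lost without control 8-cell replicate 2 (-1.24, adjusted p = 0.0531). GADD45GIP1 changed by -1.75 (limma adjusted p = 0.00407), lost without control 4-cell replicate 1 (adjusted p = 0.0625) or edited 4-cell replicate 2 (adjusted p = 0.0626), and CHCHD1 had -0.57 (adjusted p = 0.0673).

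Of 21 assembly and rRNA modification factors, 9 fell and TFB1M rose at the 4-cell stage (median -0.70), and 4 fell at the 8-cell stage (median -0.22). With both directions together, the called shares of 47.6% and 19.0% were near those of all genes, 44.7% and 15.6%. By direction the list was skewed to falls: at the 4-cell stage 25.8% of all genes were called lower and 18.9% higher. At the 8-cell stage these shares were 14.5% and 1.08%. With the cumulus and granulosa marker covariate described below, none was called at the 4-cell stage (4 at an unadjusted p under 0.05 with limma) and the median was -0.36. METTL17, a methyltransferase-like factor of small-subunit assembly, stood at 20.8 and 24.0 CPM against 1.97 and 3.04 CPM, then at 11.0 and 9.46 CPM against 1.88 and 0.689 CPM. It fell by 2.75 and by 2.34 (limma adjusted p = 4.27e-05 and 4.06e-04). MALSU1, which binds MRPL14 and keeps the subunits from joining too early, fell by 2.60 and by 1.68 (limma adjusted p = 3.90e-05 and 0.00361), from 53.2 and 30.5 CPM to 6.85 and 4.88 CPM at the 4-cell stage. MPV17L2 fell by 2.14 at the 4-cell stage (limma adjusted p = 1.56e-05). YBEY, an endonuclease of rRNA maturation, fell by 1.59 at the 8-cell stage (limma adjusted p = 0.0129), a call lost without control 8-cell replicate 2 (-0.94, adjusted p = 0.261) or edited 8-cell replicate 2 (-1.28, adjusted p = 0.129). TFB1M, which dimethylates the small rRNA, had 73.5 and 106 CPM against 176 and 132 CPM. Its rise of 0.78 (limma adjusted p = 0.0149) was lost without control 4-cell replicate 1 (0.52, adjusted p = 0.129) or edited 4-cell replicate 1 (0.58, adjusted p = 0.135).

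Among 14 translation factors and message-handling proteins, 5 fell and MTIF2 rose at the 4-cell stage (median -0.39), and 2 fell at the 8-cell stage (median -0.36). With both directions together, the called shares of 42.9% and 14.3% were close to those of all genes, 44.7% and 15.6%. By direction, 25.8% of all genes were called lower and 18.9% higher at the 4-cell stage, and 14.5% and 1.08% at the 8-cell stage. GFM1, the elongation factor that moves the ribosome along, stood at 45.2 and 48.3 CPM against 15.1 and 15.0 CPM, then at 35.3 and 33.1 CPM against 5.14 and 9.34 CPM. Its groups did not overlap at either stage, with changes of -1.57 and -2.14 (limma adjusted p = 7.65e-04 and 1.41e-04). MTRFR, a release factor for stalled ribosomes, fell by 2.04 and by 1.31 (limma adjusted p = 1.10e-04 and 0.00891), the latter lost without control 8-cell replicate 2 (adjusted p = 0.117) or edited 8-cell replicate 2 (adjusted p = 0.116). TSFM, the exchange factor of the elongation factor Tu, fell by 1.26 at the 4-cell stage (limma adjusted p = 4.42e-04). MTIF2, the initiation factor, had 45.0 and 51.5 CPM against 82.1 and 79.0 CPM (0.73, limma adjusted p = 0.0186) and lost its call without control 4-cell replicate 1 (adjusted p = 0.0844) or edited 4-cell replicate 1 (adjusted p = 0.0666).

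Of 16 genes for transcription and replication of mitochondrial DNA and for nuclear factors known at such promoters, 4 rose and 3 fell at the 4-cell stage (median -0.13), and 2 fell at the 8-cell stage (median 0.15). With both directions together, the called shares of 43.8% and 12.5% did not exceed those of all genes, 44.7% and 15.6%. By direction, 25.8% of all genes were called lower and 18.9% higher at the 4-cell stage, and 14.5% and 1.08% at the 8-cell stage. POLG2, the accessory subunit of the mitochondrial DNA polymerase, rose from 28.2 and 59.2 CPM to 124 and 96.8 CPM (1.40, limma adjusted p = 0.00135), and TEFM, the transcription elongation factor, from 96.9 and 173 CPM to 292 and 247 CPM (1.05, limma adjusted p = 0.00328). MTERF1 rose by 1.15 (limma adjusted p = 0.0109), lost without control 4-cell replicate 1 (0.88, adjusted p = 0.0850) or edited 4-cell replicate 2 (0.57, adjusted p = 0.185). SSBP1, which coats single-stranded mitochondrial DNA, fell by 1.07 and by 1.05 at the 4-cell and 8-cell stages (limma adjusted p = 0.00156 and 0.00443), the latter lost without control 8-cell replicate 2 (adjusted p = 0.0668). TFAM, which packages mitochondrial DNA, fell by 1.10 and by 1.46 (limma adjusted p = 0.0202 and 0.00953). Its 4-cell call was lost with edgeR (adjusted p = 0.0628) and without control or edited 4-cell replicate 1 (adjusted p = 0.137 and 0.157), and its 8-cell call without control 8-cell replicate 2 or edited 8-cell replicate 2 (adjusted p = 0.0620 and 0.0768). GABPA, a nuclear transcription factor of respiratory genes, fell by 0.84 at the 4-cell stage (limma adjusted p = 0.0239), lost without control 4-cell replicate 2 (adjusted p = 0.116) or edited 4-cell replicate 2 (adjusted p = 0.124).

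The 13 messages that mitochondrial ribosomes translate moved the other way at the 4-cell stage: 11 rose and none fell (median 1.44), and at the 8-cell stage ND3 alone rose (median 0.18). Over all genes 18.9% and 1.08% were called higher at these stages. With the marker covariate none of the 13 was called at the 4-cell stage (11 at an unadjusted p under 0.05 with limma) and the median was 2.31. ND1 stood at 182 and 400.5 CPM in control and at 1033 and 659.8 CPM in edited 4-cell embryos (1.61, limma adjusted p = 9.86e-04). ATP6 stood at 432 and 838 CPM against 2140 and 1248 CPM (1.44, limma adjusted p = 0.00186), and ATP8, whose reading frame overlaps it so that reads may be split between them, rose by 1.37 (limma adjusted p = 0.00215). Both edited libraries lay above both controls in 10 of the 13 at the 4-cell stage, where 33.5% of all tested genes did so. The summed level overlapped between groups: it was 4276 and 12324 CPM in control and 16789 and 11586 CPM in edited 4-cell embryos. At the 8-cell stage it was 8662 and 12748 CPM against 10082 and 10061 CPM. Without control 4-cell replicate 1, which had the lowest sum of all libraries, 5 of 13 were called (median 0.61), and without control 4-cell replicate 2 all 13 were. Leaving out edited 4-cell replicate 1 left 2 calls, without ATP6 (1.05, adjusted p = 0.0602) and ND3 (1.02, adjusted p = 0.0689), and leaving out edited 4-cell replicate 2 left 8. ND3 had 36.5 and 80.9 CPM against 155 and 137 CPM at the 8-cell stage (1.40, limma adjusted p = 0.0116), a call lost without control 8-cell replicate 1 (0.84, adjusted p = 0.157) or edited 8-cell replicate 1 (1.31, adjusted p = 0.0744).

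**Figure D5:**
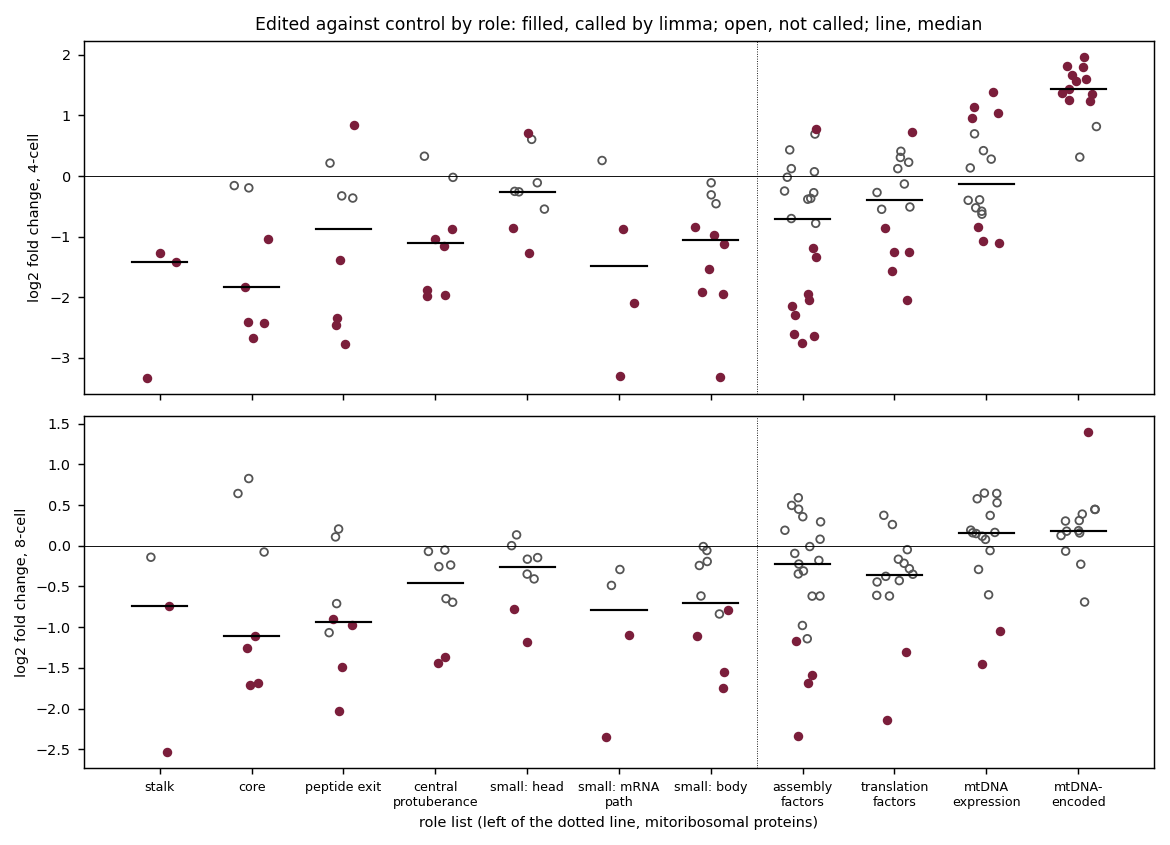
Log2 fold change of edited against control embryos at the 4-cell (top) and 8-cell (bottom) stage for each gene, by role list, with filled points for limma calls, open points for genes without a call and lines for list medians. Left of the dotted line are the mitochondrial ribosomal proteins, with medians between -1.83 and -0.26 at the 4-cell stage, and right of it their partner genes, ending with the messages of mitochondrial DNA at a 4-cell median of 1.44.

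Lists of genes taken as markers of cells other than the embryo were compared too. Whether the listed genes come only from such cells was not tested. The cumulus and granulosa sum and the mesenchymal sum were lower in edited embryos at both stages, and the epithelial sum at the 4-cell stage only. The 20 cumulus and granulosa markers summed to 1702 and 1347 CPM in control and 447 and 482 CPM in edited 4-cell embryos, and to 567 and 896 CPM against 465 and 452 CPM at the 8-cell stage, with 1 to 3 of them at 0 in each library. CYP11A1, a steroid-making enzyme of granulosa cells, had 227 and 201 CPM against 3.33 and 14.5 CPM, while FSHR had at most 9.68 CPM, and LHCGR was at 0 or below 0.0858 CPM in every library. Not all of the list went this way: of its 16 tested genes, 10 were called lower and 2 higher at the 4-cell stage, and 4 lower and none higher at the 8-cell stage. Over all genes 25.8% were called lower and 18.9% higher at the 4-cell stage, and 14.5% and 1.08% at the 8-cell stage. HAS2, which makes the hyaluronan of the expanding cumulus, had 24.3 and 55.4 CPM in control against 132 and 124 CPM in edited 4-cell embryos, and GREM1 had 3.39 and 3.34 CPM against 8.42 and 7.93 CPM. The 11 mesenchymal markers summed to 4641 and 7929 CPM against 1520 and 2264 CPM, then to 3740 and 3344 CPM against 221 and 889 CPM. Epithelial markers (7 of 9 listed) summed to 116 and 115 CPM against 46.5 and 46.2 CPM, then to 52.8 and 102 CPM against 61.1 and 45.3 CPM, and leukocyte markers (6 of 8) stayed at 12.6 to 24.0 CPM in all libraries. The mean log2 level of the cumulus and granulosa list differed within groups too. It was 2.82 and 3.49 in control 8-cell replicates 1 and 2, and 56 of 77 members were higher in replicate 2. In the control 4-cell libraries it was 3.61 and 3.73 with 18 members higher in replicate 2. It was 2.31 and 2.65 with 31 in the edited 4-cell libraries, and 2.42 and 2.18 with 33 in the edited 8-cell libraries. Of all tested genes, 59.4% and 52.9% were higher in replicate 2 of the control 8-cell and 4-cell libraries. In the edited 4-cell and 8-cell libraries 40.9% and 43.4% were, near the member shares of 40.3% and 42.9%. By its sum, the marker list had the reverse order in the control 4-cell libraries, with 1702 and 1347 CPM in replicates 1 and 2. In the other groups the sums had the same order as the mean log2 level. Whether the members follow the marker level within groups was not tested. The oocyte markers had 3 of 11 called higher at the 4-cell and 2 of 11 at the 8-cell stage in edited embryos and none lower. Over all genes 18.9% and 1.08% were called higher at these stages. Both edited libraries lay above both controls at the 8-cell stage in 9 of 11, where 27.7% of all tested genes did so.

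With the mean log2 level of the cumulus and granulosa markers as a covariate in the limma fit, no member was called at the 4-cell stage (25 at an unadjusted p under 0.05) and 1 was at the 8-cell stage (12). Of all 12129 genes, 2 and 104 were then called. The member medians were -1.06 and -0.49 in that fit, with 64 of 77 members negative at each stage, and the median standard error was 0.664 and 0.518 where it was 0.267 before. Marker level and editing go together over the 8 libraries, and the part that other cells have in the member differences was not tested beyond this fit.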

How the data were processed

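RNA-seq was made from 8 pools of embryos, with polyadenylated RNA amplified as full-length cDNA by a Smart-seq kit and tagmented with Nextera XT, per the labels' protocols. The submitters' processing notes name Trim Galore 0.6.7, HISAT2 2.2.1 and featureCounts 2.0.1. Genome build, annotation and strand setting are not given in the sources used here. The deposited table has 16606 gene symbols in 12 columns, of which 4 match no sample given here and were not used. Its values are CPM as deposited by the authors, although the table is named for raw counts. Dividing by a fixed step per library gave whole reads, within 0.05 reads, for 100% of the positive values.

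The main test, planned with this unit in view, was limma-trend (limma 3.58.1 under R 4.3.3) on log2(CPM + 1), a scale that understates changes of low genes. It used the 12129 genes whose mean over all libraries was 1 CPM or more, 1 mean for each of the 4 groups and Benjamini-Hochberg adjustment over all genes. On counts simulated from these libraries, with 200 of 12129 genes changed, it recovered 60% to 71% of 4-fold and 9% to 19% of 2-fold changes over the 4 comparisons of groups, with 5 to 11 false calls. In the data 628 to 5419 genes were called in these comparisons. The adjusted cut-off is looser where more genes change, so the simulated recovery need not hold for the data. Libraries of a group correlated at 0.971 to 0.978, and their reads differed by more than sampling noise. Alternatives were a pseudocount of 0.5 or 5, no filter, edgeR 4.0.16 and DESeq2 1.42.0 on the recovered reads, upper quartile scaling, a replicate block, only the libraries compared, the marker covariate and leaving out each library. The members and all gene lists were chosen with earlier results of these data known. Genes named are MRPL11, DAP3, PTCD3 and 6 members with a placement or role of note, up to 5 called members per direction and comparison by smallest p, the 3 highest and 3 lowest by mean CPM, the largest rises, and up to 3 called genes per partner list. Members named outside this rule (MRPL3, MRPL10, MRPL13, MRPL16, MRPL19, MRPL22 to MRPL24, MRPL39 and MRPL44) complete a count or a role list and were chosen after their values were seen. MRPS36 is not analysed here. No sequences were at hand, so none are shown.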

Additional observations from a re-analysis of the deposited data

Results flagged for a closer look

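In 6 members the effect of editing differed between the stages by limma's test of that difference, given here as the 8-cell minus the 4-cell log2 fold change. The values were 1.53 for MRPL15, 1.81 for MRPL49, 1.68 for MRPL2, 1.70 for MRPS26, 1.58 for MRPL14 and 1.75 for MRPL28. In MRPL15 and MRPL2 the sign of the effect differed between the stages, and in the other 4 the effect was negative at both. None of the 6 was called with edgeR, and each lost its call when 1 of 6 libraries was left out.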

How the results depend on the processing

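Counts of called members are given as both directions together. With the cumulus and granulosa marker covariate, the counts were 0 of 54 at the 4-cell stage, 1 of 28 at the 8-cell stage, 0 of 12 between stages in controls, 2 of 5 between stages in edited embryos and 0 of 6 for the difference of the edit effect. In the same order, that fit called 2, 104, 16, 343 and 42 of all genes, where the main fit called 5419, 1895, 1094, 628 and 480. In the order controls, edited embryos and difference, the main 12, 5 and 6 became 0, 0 and 0 without the filter (32, 19 and 27 at an unadjusted p under 0.05), 0, 1 and 0 with edgeR (32, 19 and 25) and 24, 10 and 14 with DESeq2. Over all genes each fit tested, the main 1094, 628 and 480 became 0, 5 and 0 without the filter. They became 86, 324 and 18 with edgeR, and 1629, 1286 and 1035 with DESeq2. Fitting only the 4 libraries compared gave 0 and 11 for the stage comparisons, and a pseudocount of 5 gave 3 in edited embryos. Leaving out each library gave 49 to 56 and 12 to 29 members for edited against control at the 4-cell and 8-cell stages, 0 to 22 and 0 to 10 between stages in control and edited embryos, and 0 to 14 for the difference. Counts over all genes shifted in these fits too, and the cause of the shifts was not tested. The 4-cell count was otherwise 52 to 55, and 52 of its 54 members were shared with edgeR. None of the 99 called values of the genes taken by the naming rule changed sign in these fits.

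The replicate numbers are shared between groups and the labels do not say what they stand for. Deviations from group means of same-numbered libraries correlated at 0.11 and -0.09 for edited against control at the 4-cell and 8-cell stages, and at -0.30 and 0.02 between stages in control and edited embryos. With the replicate block the counts were 54, 27, 12, 2 and 6. A crossed pairing of the control libraries, chosen after seeing the data, gave 20 in place of 12. Every member had at least 32 reads in each library.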
